A study of Bos taurus with 170 samples.

Results

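The ZNF genes are the genes whose symbols consist of ZNF, a number and an optional letter. They encode zinc finger proteins, and 155 of the 10772 genes in the bovine UMI count table carry such a symbol. All 155 matched a protein-coding gene of the same symbol in the RefSeq gene table of the cow. Transcripts were counted in single blastomeres by SCRB-Seq, where a random tag (unique molecular identifier, UMI) marks each captured mRNA and lets PCR copies be counted once. The groups were 6 bovine embryos collected on Day 2, at the 8-cell stage, and 8 collected on Day 3, at the 16-cell stage. The embryos of both groups came from oocytes matured and fertilised in vitro, received no treatment and were selected by the study for early cleavage times that go with blastocyst formation. The comparison asked how the ZNF transcripts changed over the days in which the bovine embryo starts to transcribe its own genome at scale.

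Most ZNF proteins bind DNA through repeated fingers of the C2H2 type, in which a pair of cysteines and a pair of histidines hold a zinc ion. A large class of them also carries a KRAB box, which recruits the co-repressor TRIM28 (KAP1) and, with it, the histone H3K9 methyltransferase SETDB1 and HP1 proteins. KRAB zinc finger proteins are known for silencing transposable elements, and the oocyte and the early embryo hold many of their transcripts. ZNF proteins without a KRAB box include activators, chromatin and splicing factors and proteins of the mitotic spindle.

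Cells with at least 2000 UMI were kept, which left 161 of 170 cells, and their UMI were summed per embryo. Day 2 embryos held 6 to 9 kept cells and 438899 to 920192 UMI on genes, and Day 3 embryos held 13 to 17 cells and 294912 to 600185 UMI. The median cell had 75114 UMI on Day 2 and 24016.5 on Day 3. The unit of level is CPM, for which the UMI of each gene were divided by the total UMI on genes of the embryo and multiplied by 1000000. CPM is a share of the captured RNA and does not give molecules per cell. Of 93 cell barcodes, 77 were used in 2 cells each. All Day 2 embryos and Day 3 embryos 1 and 2 carried the first barcode set, Day 3 embryos 4 to 8 the second, and the labels do not settle that of embryo 3. A set means a group of cells here. With most barcodes used in 2 cells, the sets need not differ in barcode sequence, and what batch they stand for is not given. Day 3 embryo 1 stood apart from the other Day 3 embryos and near the Day 2 embryos in many of the genes below. The 10 oocyte markers in the table, such as ZP2, GDF9 and DPPA3, had UMI on both days, with a summed level of 9782 to 11610 CPM on Day 2 and 3192 to 12400 on Day 3. The 10 cumulus cell markers in the table summed to 506.5 to 614.8 CPM on Day 2 and 195.6 to 549.8 on Day 3. HAS2 and STAR took most of these UMI. The other 8, set apart after the values were seen, summed to 34.2 to 66.3 CPM on Day 2 and 36.7 to 78.0 on Day 3. Single markers differed in direction, with TNFAIP6 at a mean of 0.38 and 12.4 CPM on Day 2 and Day 3 and VCAN at 23.1 and 11.9 CPM. The 4 sperm markers summed to 9.70 CPM or less in every embryo.

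ZNF transcripts were present in large number but mostly at low levels. UMI of 149 of the 155 genes were found on both days, 84 genes had UMI in all 14 embryos, and an embryo held UMI of 129 to 142 ZNF genes on Day 2 and 118 to 136 on Day 3. The median over the genes of the mean level was 17.6 CPM, against 19.9 CPM over all 10772 genes. Only 20 ZNF genes averaged over 100 CPM, and 58 averaged under 10 CPM.

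The 6 most abundant ZNF genes took 29.6% of the summed level, and 2 of them rose on Day 3. ZNF131, which encodes a BTB domain transcription factor, had the highest mean with 490 CPM over the 14 embryos, followed by ZNF706 with 419 and ZNF207 with 416 CPM. ZNF830, which is needed for survival of the early mouse embryo, averaged 399 CPM. ZNF622, a maturation factor of the large ribosomal subunit, averaged 326 CPM, and ZNF638, which brings silencing complexes to retroviral DNA, averaged 269 CPM. ZNF131 and ZNF207 were the genes that rose, whereas the other 4 did not pass the test. ZNF622 varied little and ranged from 244 to 355 CPM on Day 2 and from 270 to 433 CPM on Day 3, and its log2 fold change was 0.32 with a standard error (SE) of 0.18 (adjusted p = 0.183). ZNF706, ZNF830 and ZNF638 had log2 fold changes of -0.25, -0.25 and 0.11, with SEs of 0.26, 0.20 and 0.33.

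The summed level of the 155 genes had a mean of 8185 CPM in the 6 Day 2 embryos (SD 425) and of 7583 CPM in the 8 Day 3 embryos (SD 321). The values were 8457, 8816, 8348, 7941, 7843 and 7708 CPM in Day 2 embryos 1 to 6. In Day 3 embryos 1 to 8 they were 8084, 7989, 7462, 7281, 7158, 7561, 7659 and 7468 CPM. The groups overlapped, and the difference of -603 CPM was larger than the SD of either group. No test was made on the sum. Its direction depended on the scaling: after division by the TMM factors of edgeR, which set the bulk of genes level between embryos, the sum was 7347 ± 305 CPM on Day 2 and 8290 ± 1240 CPM on Day 3. On plate 2 the mean sums were 7775 CPM in 2 Day 2 embryos and 7563 CPM in 2 Day 3 embryos, and on plate 3 they were 8390 CPM in 4 and 7360 CPM in 2 embryos. Plate 1 held Day 3 embryos only. Plates are read here from the p1, p2 or p3 that ends each cell title, and that p stands for plate is an assumption.

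The shares that single genes took of the sum differed between the days. ZNF131 took 0.646% ± 0.0998 of the ZNF UMI in the 6 Day 2 embryos (mean ± SD) and 10.83% ± 6.01 in the 8 Day 3 embryos, where it ranged from 1.298% in embryo 1 to 19.3% in embryo 7. The other 9 genes that rose summed to 378 to 470 CPM on Day 2 and to 515 to 2343 CPM on Day 3. The 9 genes that fell summed to 1320 to 1562 CPM on Day 2 and to 350 to 1158 CPM on Day 3. The ZNF genes of neither group summed to 6264 ± 315 CPM on Day 2 and 4776 ± 810 CPM on Day 3. These sums follow from the calls given next and were not tested.

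**Figure D1:**
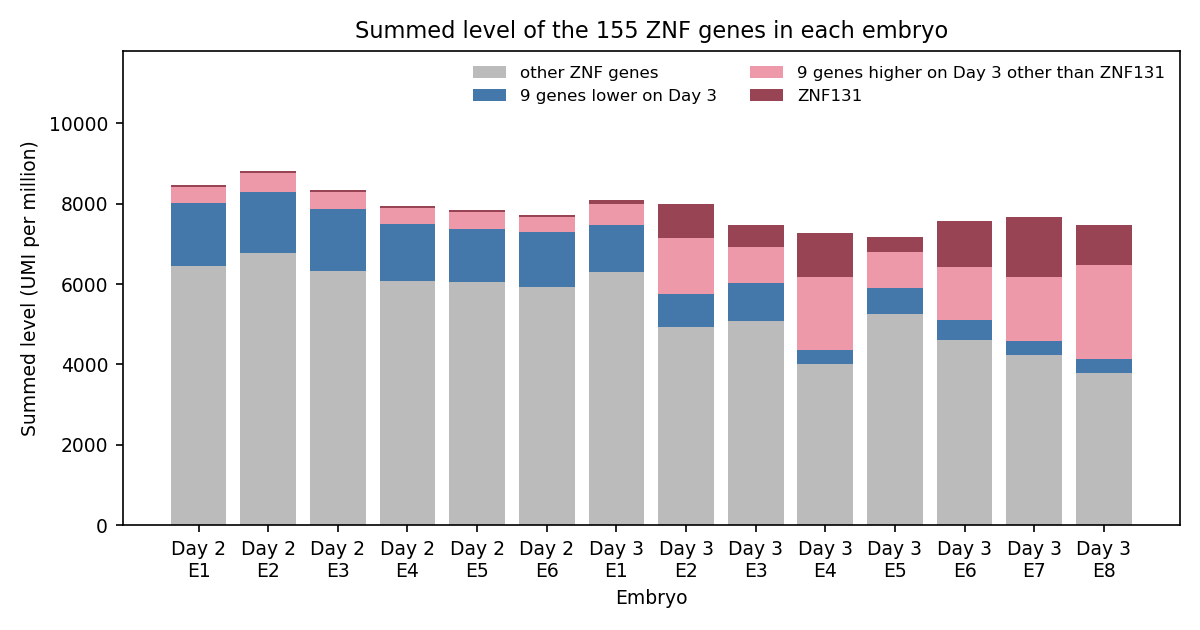
Summed level of the 155 ZNF genes in each embryo, in CPM, stacked from ZNF131, the 9 other genes that rose, the 9 genes that fell and the remaining ZNF genes. The whole bar lay between 7158 and 8816 CPM, while ZNF131 went from 63.0 CPM or less in each Day 2 embryo to between 105 and 1477 CPM in the Day 3 embryos.

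For the comparison of single genes, edgeR's quasi-likelihood test was fitted on all genes with enough counts and adjusted by the method of Benjamini and Hochberg over all of them. Of the 155 ZNF genes, 72 passed the filter on low counts, and 83 did not and had a median of 35 UMI over all embryos. On Day 3, 10 of the 72 tested ZNF genes were higher and 9 were lower, which is 13.89% and 12.5%. Over all 5274 genes tested, 21.29% were higher and 10.45% were lower. The median log2 fold change was -0.09 over the tested ZNF genes and -0.03 over all tested genes. Without TMM scaling 10 were higher and 19 lower, against 16.78% and 18.32% of all genes, and the median of all genes moved from -0.03 to -0.28. The fold changes below are on the TMM scale. Without the filter on low counts 19 of all 155 were higher and 10 lower, against 14.05% and 6.201% of all genes. The 53 tested ZNF genes that were not called lay between -0.996 and 0.77 on the log2 scale. A call says that the difference was large beside its standard error, which rests on the spread between these embryos. Embryos of both days can still overlap in a called gene.

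In 3 tested ZNF genes every Day 3 embryo lay above every Day 2 embryo, and in 6 every Day 3 embryo lay below, against 3.982% and 5.385% of all tested genes. The 3 were ZNF131, ZNF296 and ZNF608. The 6 were ZNF75A, ZNF181, ZNF197, ZNF34, ZNF548 and, named after its values were seen, ZNF2, whose log2 fold change of -0.94 did not pass the test (adjusted p = 0.0601). When Day 3 embryo 1 was left out, these counts were 4 and 14, and the test called 11 genes higher and 15 lower. Without Day 3 embryo 3 it called 9 higher and 15 lower. The shares of all genes are not given for these smaller sets of embryos, so these counts cannot be set beside them.

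The rise of ZNF131 was the largest. It had 41.01 CPM in the lowest, 52.6 CPM in the median and 63.0 CPM in the highest Day 2 embryo, and 105, 909 and 1477 CPM in the corresponding Day 3 embryos. All Day 3 embryos were above all Day 2 embryos, but embryo 1 with 105 CPM was well below the next one with 351 CPM. The log2 fold change was 4.28 (SE 0.51, adjusted p = 5.11e-05 by edgeR's test). ZNF131 UMI were found in 37 of 43 Day 2 cells and in 115 of 118 Day 3 cells, with a median of 5 UMI in the Day 2 cells that had any and 18 in the Day 3 cells. With each cell thinned to 10000 UMI, 45.6% ± 23.4 of the cells of a Day 2 embryo had a UMI (SD, n = 6), compared to 96.2% ± 8.22 on Day 3 (SD, n = 8). The thinned values rest on 37 Day 2 and 103 Day 3 cells, and cells that should lack the gene were not among the samples.

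ZNF296, which encodes a factor of embryonic stem cells that acts with pluripotency factors, showed the next largest rise. Its level was 8.55 CPM in the lowest, 21.2 CPM in the median and 34.2 CPM in the highest Day 2 embryo, and 119, 224 and 491 CPM on Day 3. The groups were apart in every embryo, embryo 1 of Day 3 included, which had 172 CPM. The log2 fold change was 4.10 (SE 0.40, adjusted p = 8.43e-06 by edgeR's test). In thinned cells ZNF296 was detected in 12.3% ± 10.31 of the cells of a Day 2 embryo and in 86.3% ± 17.9 of those of a Day 3 embryo, and before thinning in 70.1% ± 23.4 and 95.5% ± 5.33.

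Other transcription factors among the genes that rose were ZNF608, ZNF668, ZNF576, ZNF148 and ZNF513. ZNF608 had 11.39 to 21.8 CPM on Day 2 with a median of 16.71 CPM, and 23.3 to 188 CPM on Day 3 with a median of 88.4 CPM. Its log2 fold change was 2.88 (SE 0.50, adjusted p = 0.000558), and the lowest Day 3 embryo, again embryo 1, was just above the highest Day 2 embryo. ZNF148 (ZBP-89), which binds GC-rich promoters, rose with a log2 fold change of 2.47 (SE 0.57, adjusted p = 0.00409), and 7 of 8 Day 3 embryos were above all Day 2 embryos. ZNF668 and ZNF576 were scarce on Day 2, with 25 UMI each over all 6 embryos, and rose by 3.18 and 2.73 on the log2 scale. ZNF668 had no UMI in Day 3 embryos 1 and 3 and 39.0 to 77.7 CPM in the other 6. ZNF513 rose by 1.59 on the log2 scale, with 6 of 8 Day 3 embryos above all Day 2 embryos, but with the first barcode set alone its log2 fold change was -0.0102 (adjusted p = 0.993 by edgeR's test).

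The remaining genes that rose act on chromosomes and RNA. ZNF207 (BuGZ), which binds microtubules and loads the checkpoint protein BUB3 at kinetochores, had 212 CPM in the lowest, 237 CPM in the median and 296 CPM in the highest Day 2 embryo, and 217, 498 and 1130 CPM on Day 3. The groups overlapped through Day 3 embryos 1 and 5, and the log2 fold change was 1.57 (SE 0.39, adjusted p = 0.00664). ZNF335, a component of a histone H3K4 methyltransferase complex, rose by 1.47 on the log2 scale (adjusted p = 0.0184), with 4 of 8 Day 3 embryos above the Day 2 range. ZNF326, a subunit of the DBIRD complex that couples transcript elongation to splicing, had a log2 fold change of 1.69 (SE 0.58, adjusted p = 0.0334). In ZNF326 only 5 of 8 Day 3 embryos were above all Day 2 embryos and 2 were below all of them, and its call was lost in 8 of the 14 fits that left out 1 embryo. With plate as a term ZNF335 and ZNF326 lost their calls, with log2 fold changes of 1.101 (adjusted p = 0.14) and 1.08 (adjusted p = 0.286) by edgeR's test. On plates 2 and 3 with the same term they were 1.07 (adjusted p = 0.053) and 1.09 (adjusted p = 0.18).

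**Figure D2:**
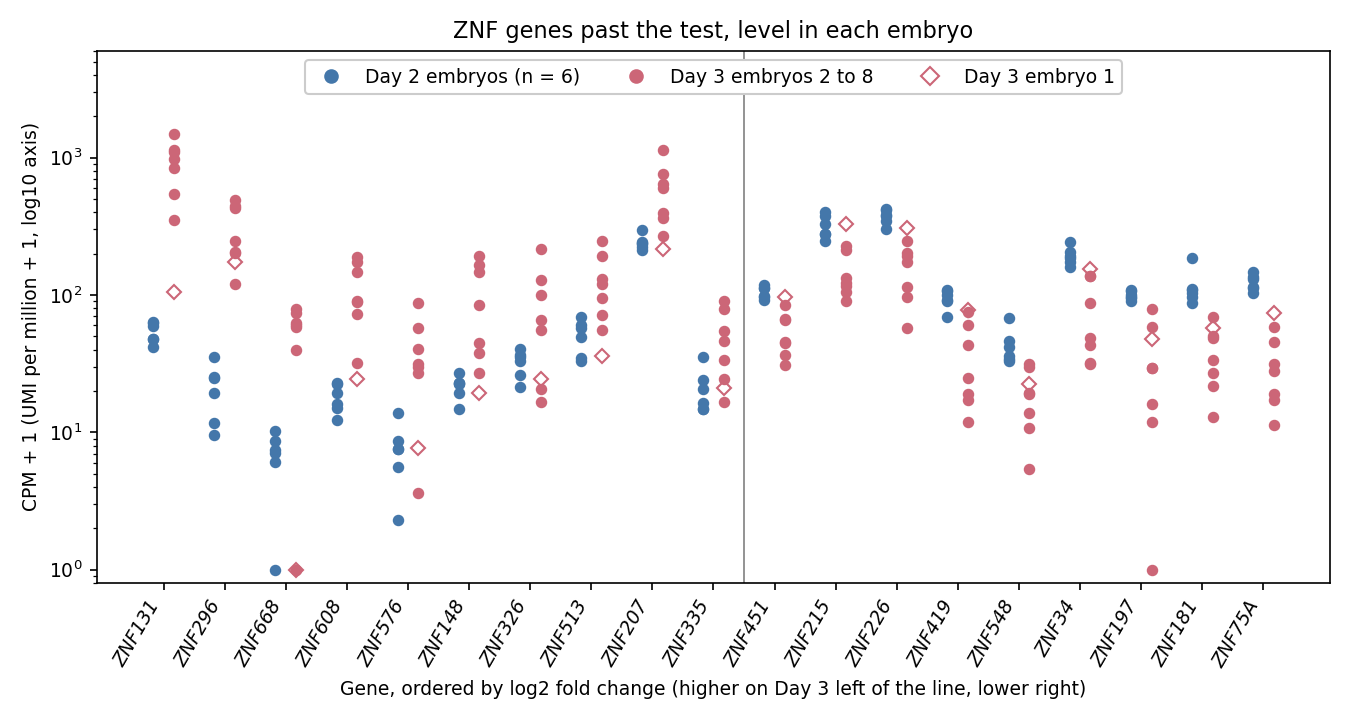
Level of the 19 ZNF genes past the threshold in each embryo, as CPM + 1 on a log10 axis, with Day 2 embryos on the left and Day 3 embryos on the right of each gene and Day 3 embryo 1 as an open diamond. ZNF131, ZNF296 and ZNF608 had no overlap between the days, and embryo 1 was inside the Day 2 range for 7 of the 10 genes that rose and 4 of the 9 that fell.

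The log2 fold changes of the 9 genes that fell lay between -1.58 and -0.60. ZNF75A had 103 CPM in the lowest, 122 CPM in the median and 146 CPM in the highest Day 2 embryo, and 10.297, 28.9 and 73.3 CPM in the corresponding Day 3 embryos. No Day 3 embryo reached the Day 2 range, and the highest of them was embryo 1. The log2 fold change was -1.58 (SE 0.28, adjusted p = 0.000676 by edgeR's test). In thinned cells ZNF75A was detected in 75.7% ± 15.52 of the cells of a Day 2 embryo and in 35.1% ± 23.5 of those of a Day 3 embryo, and before thinning in 84.4% ± 15.01 and 48.2% ± 22.9.

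ZNF181 had 86.9, 105 and 186 CPM in the lowest, median and highest Day 2 embryo and 11.95, 40.2 and 68.1 CPM on Day 3, again without overlap. Its log2 fold change was -1.32 (SE 0.28, adjusted p = 0.00208). The share of thinned cells with a ZNF181 UMI was 61.1% ± 24.3 in Day 2 embryos and 30.8% ± 19.0 in Day 3 embryos. Before thinning it was 89.3% ± 20.1 and 47.5% ± 18.3. ZNF197, whose protein carries a SCAN domain beside its KRAB box, was tightly distributed on Day 2 with 89.1 to 107 CPM and ranged from 0 in embryo 7 to 78.6 CPM on Day 3. Its log2 fold change was -1.32 (SE 0.42, adjusted p = 0.0250).

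ZNF34, ZNF548, ZNF419 and ZNF226 fell by 1.00, 0.99, 0.98 and 0.89 on the log2 scale, with adjusted p-values between 0.00827 and 0.0323. ZNF34 decreased from a median of 189 CPM to one of 66.8 CPM and ZNF548 from 38.0 to 18.1 CPM, both without overlap. ZNF226 was the most abundant of the 9 with a median of 376 CPM on Day 2 and 181 CPM on Day 3. ZNF215, an imprinted gene in human, and ZNF451, which encodes a SUMO ligase, were closest to the threshold with adjusted p-values of 0.0371 and 0.0421. They lost the call in 7 and 8 of the 14 fits that left out 1 embryo. ZNF419 lost it in 2 and ZNF548 in 1, while 5 genes that fell and 7 that rose kept it in all 14. ZNF668 and ZNF576 kept it in the 8 of these fits in which they passed the filter and were not tested in the other 6.

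Day 3 embryos differed in how many of these genes lay outside the Day 2 range. Of the 10 genes that rose, embryos 4, 7 and 8 had all 10 above the highest Day 2 embryo, embryo 2 had 9, embryos 3 and 6 had 8, embryo 5 had 6 and embryo 1 had 3. Of the 9 genes that fell, embryos 3 to 8 had all 9 below the lowest Day 2 embryo, embryo 2 had 8 and embryo 1 had 5. Since these genes were called on the same embryos, the counts describe the embryos and are no test. Embryos 4 to 8 carried the second barcode set. With the embryos of the first set alone, which leaves 2 Day 3 embryos, edgeR's test called 200 of all genes tested. The main fit called 1123 of all genes higher and 551 lower. With the first set, 3 of 92 tested ZNF genes were higher and 0 lower by edgeR's test. At an unadjusted p under 0.05, 5 were lower. The 3 were ZNF131, ZNF296 and ZNF608. The part of the barcode set in the other calls cannot be told apart from the day for embryos 4 to 8. Within plate 2, ZNF131 averaged 51.2 CPM on Day 2 and 1230 CPM on Day 3, and within plate 3 it averaged 53.8 and 746 CPM. The sum of the 9 genes that fell averaged 1341 and 357 CPM within plate 2, and 1515 and 579.5 CPM within plate 3.

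By what is known of the human proteins of the same names, 31 of the 72 tested genes encode a KRAB box and 41 do not. This division was made after the values were seen and is given as a description. It holds only genes past the filter on low counts, which genes scarce on Day 2, such as ZNF668 and ZNF576, passed through their Day 3 levels. The fit without the filter placed 10 untested ZNF genes higher and 1 lower, and in it 14.05% of all genes were higher and 6.201% lower. Of the untested ZNF genes placed higher, ZNF394, ZNF432, ZNF565, ZNF189, ZNF12 and ZNF667 encode a KRAB box. The counts by class therefore hold for the tested genes only. Of the 31 KRAB genes, 0 rose and 8 fell by edgeR's test, with 1 higher at an unadjusted p under 0.05 and 0 higher by DESeq2. Of the 41 without a KRAB box, 10 rose and 1, ZNF451, fell. Over all tested genes 21.29% were higher and 10.45% were lower. The median log2 fold change was -0.36 for the KRAB genes and 0.10 for the others, beside -0.03 over all tested genes, and 24 of the 31 KRAB genes were below 0. Without TMM scaling the medians were -0.62 and -0.20, with 13 KRAB genes and 6 others lower. The KRAB genes summed to 3135 ± 245 CPM on Day 2 and 1862 ± 521 CPM on Day 3, and the others to 4471 ± 171 and 5163 ± 389 CPM. Of the sum of the others, ZNF131 alone held a mean of 53.0 CPM on Day 2 and 817 CPM on Day 3. That rise was larger than the rise of the whole sum. Within plate 2 the KRAB sum averaged 2888 CPM on Day 2 and 1338 CPM on Day 3, and within plate 3 it averaged 3259 and 1959 CPM. Without Day 3 embryo 1, 1 KRAB gene was higher and 11 were lower, and the share of all genes is not given for that set. With the first barcode set alone the counts were 0 and 0, with a median log2 fold change of -0.19. In that fit 200 of all genes tested were called.

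**Figure D3:**
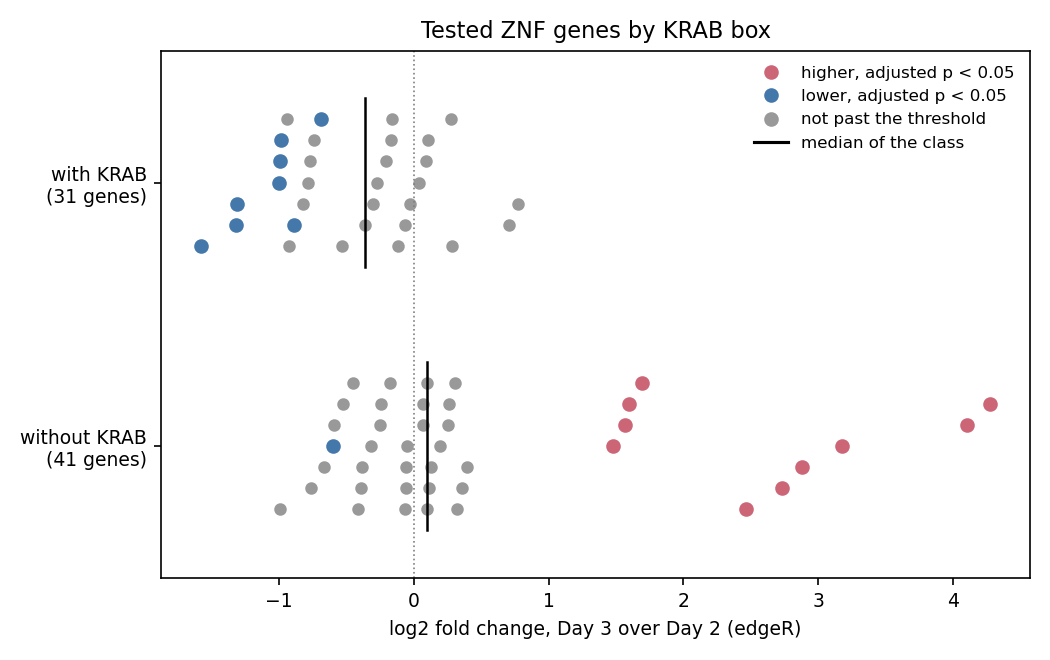
The log2 fold change of Day 3 over Day 2 for the 72 tested ZNF genes, 1 point per gene, divided into 31 genes with and 41 without a KRAB box, with the median of each class as a line; the vertical position within a class only separates the points. Among these tested genes, all 10 that rose lay in the class without a KRAB box, between 1.47 and 4.28, and 8 of the 9 that fell lay in the KRAB class. The 10 are 24.39% of their class, beside 21.29% of all tested genes that were higher. The 8 are 25.81% of theirs, beside 10.45% of all tested genes that were lower. The division was made after the values were seen. The 83 untested ZNF genes are not shown, and some with a KRAB box were placed higher in the fit without the filter on low counts.

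Many ZNF genes lie next to each other in the genome. In the order of protein-coding genes of the RefSeq table, 66 of the 155 genes had another ZNF gene as a direct neighbour. Zinc finger genes under other kinds of symbol were not counted, so genes without a ZNF neighbour can also lie in clusters. Of the 25 tested genes with such a neighbour, 2 rose and 5 fell, with a median log2 fold change of -0.27. Of the 47 tested genes without one, 8 rose and 4 fell, with a median of -0.05. Both stand beside the 21.29% of all tested genes that were higher and the 10.45% that were lower. Reads of similar ZNF genes can be assigned to the wrong copy, and how reads with several matches were counted is not given in the sources used here, so values of clustered genes are less certain.

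The genes of proteins that work with KRAB zinc finger proteins were counted in the same way. Of 29 listed symbols of co-repressor genes, 22 were in the table and 20 were tested. The list held FAM208A and TASOR, which name the same gene, in the table as FAM208A. On Day 3, 6 of the 20 rose, beside the 21.29% of all tested genes that were higher. By edgeR's test 0 fell, beside the 10.45% of all tested genes that were lower. At an unadjusted p under 0.05, 3 were lower, and 0 were lower by DESeq2. TRIM28 itself was scarce, with 16.64 to 29.3 CPM on Day 2 and 7.798 to 33.5 CPM on Day 3, and did not pass the filter. SETDB1 had 271 to 360 CPM on Day 2 and 95.3 to 361 CPM on Day 3, with a log2 fold change of -0.15 (SE 0.21, adjusted p = 0.601). The genes that rose were the HP1 genes CBX3 (log2 fold change 3.99) and CBX5 (1.101), the SETDB1 partner ATF7IP (3.22), and MTA2 (3.27), MBD3 (0.77) and RBBP4 (0.93) of the NuRD complex. The count was 3 when Day 3 embryo 4, 7 or 8 was left out and 2 with the first barcode set alone. The shares of all genes are not given for these sets of embryos.

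The related ZSCAN, ZKSCAN, ZBTB and ZFP symbols numbered 40 in the table, of which 22 were tested. ZBTB9 (log2 fold change 4.05) and ZBTB11 (2.00) rose, and ZBTB40 (-1.20) and ZBTB5 (-0.72) fell, which is 9.091% of the 22 in each direction beside 21.29% and 10.45% of all tested genes. The median log2 fold change of the 22 was -0.02. The pattern of names also takes in ZFP36, whose protein binds RNA through another type of finger, and ZBTB8OS, which is no zinc finger gene.

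The ZNF genes restricted to one day were scarce. By the rule of UMI in at least 3 embryos of one day and none on the other, ZNF366 was restricted to Day 2 and ZNF280A to Day 3. The share of all genes that meet this rule is not given, so the number of ZNF genes cannot be set beside it. ZNF366, known from dendritic cells, had 5 UMI in 3 Day 2 embryos, or 1.24 CPM over the group. The absence of UMI on Day 3 allows up to 0.952 CPM (3 UMI over the group). In the edgeR fit without the filter on low counts it was not called (adjusted p = 0.113). ZNF280A had 6 UMI in 4 Day 3 embryos, or 1.90 CPM, and no UMI on Day 2 allows up to 0.746 CPM. Its adjusted p in the same edgeR fit was 0.0322. Both genes were chosen by the rule on these same counts, so the p-values do not test the restriction. The limits in CPM cover counting error only. A further 4 genes, ZNF48 on Day 3 and ZNF704, ZNF787 and ZNF8 on Day 2, were named after their values were seen and had 1 or 2 UMI on one day only, for which a restriction was not detectable at this depth.

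More ZNF genes were detected in the deeper Day 2 cells. A cell had UMI of 84.8 ± 11.696 ZNF genes on Day 2 (SD over embryo means, n = 6) and of 55.1 ± 8.66 on Day 3 (SD, n = 8). With each cell thinned to 10000 UMI the numbers were 41.1 ± 1.39 and 36.9 ± 3.79. The thinned Day 2 embryos lay between 39.5 and 43.1 genes per cell, and the Day 3 embryos spread from 32.5 in embryo 7 to 42.5 in embryo 1. Embryos 1 and 2 of Day 3 were within the Day 2 range and the other 6 were below it.

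**Figure D4:**
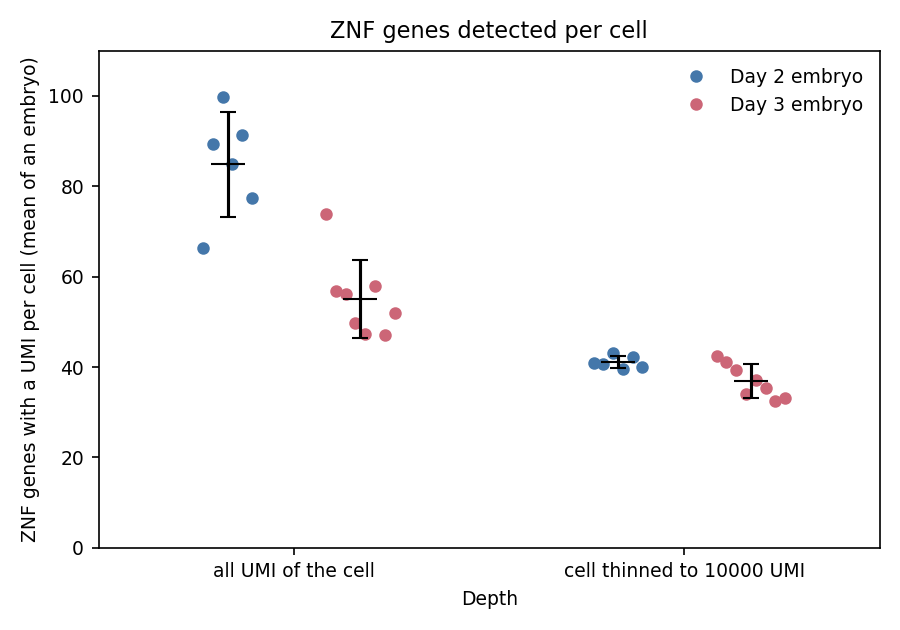
Mean number of ZNF genes with a UMI per cell in each embryo, from all UMI of a cell and after each cell was thinned to 10000 UMI, with the mean and SD over 6 Day 2 and 8 Day 3 embryos in black. The gap between the days was 29.7 genes at full depth and 4.18 genes at equal depth.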

How the data were processed

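Per the labels and the study's methods, the authors aligned SCRB-Seq reads to Bos tau7 (UCSC) plus ERCC spike-ins by STAR 2.5.2b and derived UMI tables with the Drop-seq tools. Their deposited UMI counts (whole numbers, 170 cells) are the values used here. The deposited normalised table was not used, since it holds no counts. All columns were matched to samples. Spike-ins (92 rows, 1.78% of the UMI of kept cells) were left out, as were 9 cells under 2000 UMI. UMI were summed per embryo, the replicate, and Day 3 was compared with Day 2 in edgeR 4.0.16 (R 4.3.3; filterByExpr, TMM, robust quasi-likelihood F test, Benjamini-Hochberg threshold 0.05). Standard errors were derived from the F statistic. The steps were tested on simulated data. DESeq2 1.42.0 was an alternative. UMI totals per embryo (438899 to 920192 on Day 2, 294912 to 600185 on Day 3) set the precision. Neighbours came from RefSeq gene order in ARS-UCD2.0, another build, so no coordinates are given. Named genes were up to 10 called genes in each direction, the 6 with the highest mean CPM, the genes restricted to one day, TRIM28 and SETDB1. The genes, lists and tests were chosen with earlier results of these data known.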

Additional observations from a re-analysis of the deposited data

Results flagged for a closer look

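In a check of 54 groups of embryos for a value far from the others (Dixon's criterion at 95%), 4 values stood out, all on Day 2, where chance flags about 1 in 20 groups. ZNF207 had 296 CPM in Day 2 embryo 2, next to 241 CPM in the nearest embryo. ZNF181 had 186 CPM in Day 2 embryo 4, next to 109 CPM. ZNF548 had 67.4 CPM in Day 2 embryo 2, next to 44.9 CPM, and its call was lost without that embryo. ZNF622 had 244 CPM in Day 2 embryo 6, next to 321 CPM. The 9 cells left out for having fewer than 2000 UMI, which no comparison used, held 33 UMI of ZNF genes among 5276 UMI on genes, found in 7 of the 9 cells.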

How the results depend on the processing

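The counts of ZNF genes higher and lower (10 and 9) were 19 and 10 without the filter on low counts, 10 and 19 without TMM scaling, 19 and 16 by DESeq2, 3 and 2 with cells thinned to 10000 UMI, 8 and 14 with plate as a term, 7 and 18 on plates 2 and 3 with plate as a term, and 3 and 0 with the first barcode set. Leaving out 1 embryo gave 7 to 11 higher and 6 to 15 lower, with 15 lower without Day 3 embryo 1 or 3. With the embryo number as replicate block they were 6 and 6. Over all genes, 200 were called with the first set, 814 with the replicate block and 2047 on plates 2 and 3 with plate as a term. The main fit called 1123 of all genes higher and 551 lower. Beside the main fit, shares of all genes by direction are given above only without the filter and without TMM scaling. For the other settings the ZNF counts cannot be set beside such shares. Same-numbered embryos share only a number, and their deviations correlated between -0.134 and 0.0263. The co-repressor genes called higher (6) were 2 in thinned cells and 2 with the first set, and 3 to 6 without 1 embryo. The related genes called (4) were 7 without the filter, 1 in thinned cells, 7 on plates 2 and 3, 2 with the first set, 9 by DESeq2 and 4 to 8 without 1 embryo. Of the 19 called genes, ZNF513 alone changed direction, with a log2 fold change of -0.0102 with the first set. The summed level differed by -603 CPM between the days, by 944 CPM after TMM scaling (added after seeing the data), by -1367 CPM without ZNF131, by -149 CPM with the first set and by -698 to -477 CPM without 1 embryo. ZNF genes restricted to one day numbered 9 in thinned cells and 1 with a minimum of 4 embryos, against 2, and the shares of all genes are not given. The gap in ZNF genes per cell at equal depth, -4.18, was -29.7 without thinning and -4.98 to -3.55 without 1 embryo (both added after seeing the data). Apart from the scaling, the thinning and the sets with fewer embryos, whose construction changes the level or the number of counts, the cause was not tested. Depth limits the 83 untested genes.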

Other observations

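Among the 83 ZNF genes below the filter on low counts, the fit without that filter placed 10 higher and 1 lower on Day 3. Over all genes in that fit 14.05% were higher and 6.201% lower. The share among all genes below the filter is not given, so the counts are no result about ZNF genes. The ZNF genes placed higher or lower were named after their values were seen. ZNF408 went from 10 UMI in the 6 Day 2 embryos to 97 UMI in the 8 Day 3 embryos, with a log2 fold change of 3.96 in that fit (adjusted p = 0.00888 by edgeR's test). ZNF394, whose protein carries a SCAN domain and a KRAB box, went from 16 to 103 UMI with a log2 fold change of 3.32 (adjusted p = 0.00305), and 6 of 8 Day 3 embryos had more CPM than any Day 2 embryo for either gene. ZNF432 went from 3 to 25 UMI (adjusted p = 0.00587). ZNF341, a regulator of STAT3 transcription, was the gene placed lower, with 74 UMI on Day 2 and 16 UMI on Day 3 and a log2 fold change of -1.67 (adjusted p = 0.0240). The others placed higher were ZNF565, ZNF280A, ZNF189, ZNF174, ZNF12, ZNF667 and ZNF511. Like ZNF394, the genes ZNF432, ZNF565, ZNF189, ZNF12 and ZNF667 encode a KRAB box by the human proteins of these names, so the count of 0 rising KRAB genes holds for the tested genes only.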
